A study of Mus musculus with 3 samples.

Results

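The heart failure library was set against the adaptive hypertrophy library, to see which genes of the non-cardiomyocytes (non-CMs) differed between 12 and 2 weeks of transverse aortic constriction (TAC). TAC narrows the aortic arch and puts the left ventricle under pressure overload, so that the wall first thickens and later fails. The members were the 3023 cells with at least 200 detected genes in these libraries, 2231 at 2 weeks and 792 at 12 weeks, out of 6915 such cells in the series. The remaining 3892 cells were a healthy control library, whose levels are given beside the others. All mice were wild-type C57BL/6JJcl, and the operated mice were males that underwent TAC at 8 weeks of age. Time after surgery and age therefore cannot be told apart. The ventricles, without the atria, were digested with collagenase, red cells were lysed, and non-CMs were enriched on Percoll and loaded unselected for droplet-based scRNA-seq of transcript 3′ ends. Each phase was 1 library, the number of hearts in it is not given in the sources used here, and no test between phases was possible. Differences between hearts, digestions and sequencing runs cannot be told apart from those between phases.

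Each cell was placed in the class whose marker genes had the largest sum of unique molecular identifiers (UMIs, the count of captured RNA molecules). The classes were endothelial cells (ECs; Pecam1, Cdh5, Kdr and Egfl7), fibroblasts (FBs; Col1a1, Col1a2 and Pdgfra), blood cells (Ptprc, Tyrobp and C1qa) and mural cells, the smooth muscle cells and pericytes of the vessel wall (Myh11, Rgs5 and Vtn). A sum of at least 3 UMIs, over 2 times that of the next class, was required, and 2390 cells met it. ECs line the vessels and pass fatty acids to the myocardium, FBs make the collagen matrix and become activated under pressure overload, and blood cells here are mainly macrophages, monocytes and neutrophils. Within a class, more cells of a subtype and more RNA per cell cannot be told apart. A gene that differs alike in all classes cannot be told apart from a difference between the libraries themselves.

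ECs were the largest class at 2 weeks and FBs were a small one, whereas at 12 weeks the classes were closer in number. ECs were 69.1% of the cells at 2 weeks (95% interval 67.1 to 71.0%, 1541 cells) and 30.8% at 12 weeks (27.6 to 34.2%, 244 cells). FBs were 4.35% (3.54 to 5.28%, 97 cells) at 2 weeks and 20.5% (17.7 to 23.4%, 162 cells) at 12 weeks. Blood cells were 7.17% (6.14 to 8.32%, 160 cells) and 9.09% (7.18 to 11.3%, 72 cells), and mural cells 3.36% (2.65 to 4.20%, 75 cells) and 4.92% (3.52 to 6.67%, 39 cells), so the intervals of these smaller classes overlapped. In the healthy library ECs were 26.1%, FBs 29.8%, blood cells 23.3% and mural cells 10.7%. The 2-week library thus stood apart in its EC share, and the healthy and 12-week libraries lay close in that of ECs. A share rises when any other class is recovered less, so that more cells of a type and fewer of the rest cannot be told apart.

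**Figure D1:**
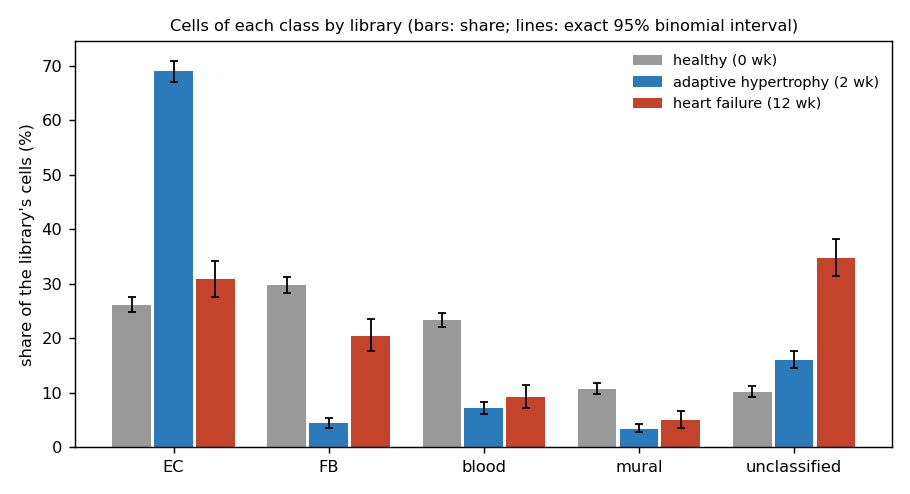
Share of the cells of each library placed in each class (vertical axis, percent), with grey bars for the healthy, blue for the 2-week and red for the 12-week library; lines are exact 95% binomial intervals. ECs stand at 69.1% at 2 weeks and 30.8% at 12 weeks, and cells placed in no class at 16.0% and 34.7%.

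Cells placed in no class were 16.0% (14.5 to 17.6%) at 2 weeks and 34.7% (31.4 to 38.2%) at 12 weeks, mostly because their marker sum was under 3 UMIs (333 of 358 and 265 of 275 cells). They were shallow, with a median of 877.5 and 814 UMIs. Summed over 8 EC genes outside the rule, such as Cldn5 and Flt1, their level was 25476 counts per 1000000 UMIs (CPM) at 2 weeks and 6290 CPM at 12 weeks. Over 8 FB genes such as Dcn and Lum it was 1002 and 6049 CPM, and over 8 blood genes such as Lyz2 and Cd74 it was 3117 and 11983 CPM. The haemoglobin and haem-synthesis genes of red cells were at 0 CPM and 3731 CPM. In the unplaced cells EC genes were thus lower at 12 than at 2 weeks, and blood, FB and red-cell genes higher.

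The class names held on genes that the rule did not use. In the EC class the 8 EC genes summed to 35732 CPM at 2 weeks and 28078 CPM at 12 weeks, against 365 and 411 CPM in FBs. The 8 FB genes summed to 30999 and 55098 CPM in FBs, and the 8 blood genes to 41716 and 47475 CPM in blood cells. The 8 mural genes, among them Acta2 and Kcnj8, summed to 15779 and 18913 CPM in mural cells, although EC genes summed to 6494 and 4399 CPM there. The median cell held 1495 UMIs at 2 weeks and 1434 at 12 weeks, against 2589 in the healthy library. By class the medians were 1633 and 1415.5 UMIs in ECs, 2005 and 2674 in FBs, 1824.5 and 1607 in blood cells, and 2428 and 2370 in mural cells, so that FBs were deeper and ECs shallower at 12 weeks. The 2 libraries shared 3 cell barcodes.

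Levels below are the UMIs of a gene over all UMIs of a class, in CPM, and differences are log2 ratios of 12 over 2 weeks with 1 CPM added. Intervals are at 95%, exact Poisson for a level and conditional binomial for a fold, and cover counting error only. Of 9163 genes with at least 20 UMIs in ECs, 7.20% were at least 2-fold higher and 6.85% at least 2-fold lower at 12 weeks. The shares were 7.32% and 6.44% of 5544 genes in FBs, 6.56% and 8.30% of 3338 in blood cells, and 5.03% and 10.6% of 2803 in mural cells. The median gene was at a log2 ratio of 0.09, -0.01, -0.04 and -0.05. Genes past 2-fold in all 4 classes were rare, with 11 of 1897 genes measured in all 4 higher (0.580%) and 3 lower (0.158%). Leaving out mural cells, 19 of 2682 genes were higher in the other three classes (0.708%) and 4 lower (0.149%). Genes named below by class are those with the largest ratios among genes with at least 50 UMIs and with 100 CPM in the higher library, so that rarer genes can have larger ratios. A class with under 20 UMIs of a gene did not count against a difference in 1 class alone. In the counts that follow, and for genes measured in 1 class alone, a gene needed at least 50 UMIs in that class, not 20. Genes past 2-fold in a single class and under 1.5-fold in every other measured class were 68 higher and 59 lower of 5158 in ECs (1.32% and 1.14%), 25 and 20 of 2506 in FBs (0.998% and 0.798%), 12 and 22 of 1345 in blood cells (0.892% and 1.64%), and 4 and 23 of 1129 in mural cells (0.354% and 2.04%).

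The genes that were higher in all 4 classes at 12 weeks were nearly all copies of another gene. Among them were Gm10020, Gm10076, AY036118, Gm10116, Gm8797, Gm10073, Nme2, Gm10053, Rpl10-ps3 and mt-Atp8. Of the 11, 10 carried at their 3′ end a stretch of at least 90 bases with at least 95% identity to another gene, and the exception was mt-Atp8, a subunit gene of the mitochondrial ATP synthase. Among genes measured in all 4 classes 33.3% had such a near-identical copy, and 10 of these 631 genes (1.58%) were higher in all 4 classes, against 1 of the 1266 genes without (0.0790%). Where a read fits a gene and its copy equally well, the count of each depends on how such reads are assigned.

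Gm10020 (ENSMUSG00000057262, chr15:52477617-52478228, minus strand, annotated as a processed pseudogene) showed a like difference in all classes. It is a copy of Rpl15, which encodes a protein of the large ribosomal subunit. Its level at 2 weeks was 24.4 CPM in ECs, 25.3 in FBs, 24.0 in blood cells and 20.3 in mural cells. At 12 weeks it was 296, 284, 302 and 234 CPM, and in the healthy library 20.1, 11.2, 14.9 and 7.50 CPM. The 12-week library therefore lay above both others in every class, without overlap of the intervals. The folds of 12.1 (9.05 to 16.3), 11.2 (5.32 to 28.3), 12.6 (6.20 to 28.9) and 11.6 (4.44 to 38.1) were within each other's intervals. Gm10020 took 1.78, 2.71, 2.41 and 2.17% of the UMIs of the pair at 2 weeks, and 21.8, 21.0, 21.1 and 22.4% at 12 weeks. Rpl15 itself differed little, at log2 ratios of -0.35, 0.24, 0.22 and -0.17.

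Gm10076 (chr14:105681828-105682211, plus strand, annotated as a lincRNA) is a copy of Rpl41, the gene of the smallest ribosomal protein. The whole coding sequence of Rpl41 is shown with the matching stretch of Gm10076, because the pair makes plain how alike a gene and its copy can be; both run 5′ to 3′ from GENCODE vM21 transcripts, and the 78 bases held 0 mismatches.
Rpl41: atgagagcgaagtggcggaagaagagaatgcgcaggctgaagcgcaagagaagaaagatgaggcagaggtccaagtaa
Gm10076: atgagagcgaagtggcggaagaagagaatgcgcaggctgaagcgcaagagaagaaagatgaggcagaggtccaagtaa

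Gm10076 was at 314, 192, 248 and 275 CPM in ECs, FBs, blood cells and mural cells at 2 weeks, and at 1688, 1299, 1503 and 1365 CPM at 12 weeks. These are folds of 5.38 (4.88 to 5.93), 6.78 (5.13 to 9.13), 6.07 (4.79 to 7.75) and 4.95 (3.72 to 6.66). Its part of the pair with Rpl41 was 5.05, 4.85, 4.72 and 5.34% at 2 weeks and 27.3, 27.6, 26.9 and 28.7% at 12 weeks, and 2.91 to 3.22% in the healthy library. The pair as a whole stood at 0.99 (0.95 to 1.04), 1.19 (1.11 to 1.28), 1.06 (0.99 to 1.15) and 0.92 (0.83 to 1.02) times its 2-week level. What differed was thus the division of the UMIs between gene and copy, alike in every class, while the sum stayed within 1.19-fold. Whether this came from transcription or from the assignment of reads cannot be told apart in these counts.

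In further pairs the copy also took a larger part at 12 weeks, while the sum of the pair moved more in some classes. Gm10073 (chr8:106572966-106573461) is a copy of Rplp1, a ribosomal stalk protein gene. It took 9.79 to 10.7% of the pair at 2 weeks across the classes and 32.5 to 36.4% at 12 weeks. Gm10116 (chr13:74399694-74407346), a copy of the ferritin light chain gene Ftl1, took 0.82 to 2.15% and 10.2 to 12.5%. Its level in blood cells, which store iron in ferritin, was 114 CPM at 2 weeks and 1723 CPM at 12 weeks, and in mural cells 32.4 and 140 CPM. Gm8797 (chr3:5750806-5751295), a copy of the polyubiquitin gene Ubb, took 2.25 to 2.90% and 5.58 to 6.55%. Rpl10-ps3 took 7.01 to 7.92% of its pair with Rpl10 and then 17.2 to 21.2%, and Gm10053, a copy of the cytochrome c gene Cycs, 0 to 9.76% and then 17.3 to 28.8%. The sum of Gm8797 and Ubb was 1.62-fold higher in blood cells (1.46 to 1.81), that of Gm10053 and Cycs 1.86-fold in FBs (1.24 to 2.87), that of Rpl10-ps3 and Rpl10 1.47-fold in FBs (1.35 to 1.61), and that of Gm10116 and Ftl1 1.41-fold in FBs (1.29 to 1.53). In each of these pairs the part of the copy at 12 weeks lay above its part at 2 weeks in all 4 classes.

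Nme2 (chr11:93949814-93956259), a nucleoside diphosphate kinase gene that matches 4 other genes at its 3′ end, was at 80.1, 50.6, 61.2 and 81.0 CPM and then at 260, 252, 199 and 195 CPM. Its difference in mural cells rested on 20 and 25 UMIs and turned when cells were thinned to equal depth.

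AY036118 (chr17:39847113-39848035, minus strand, annotated as a lincRNA) matches 1 other gene, CT010467.1, over its whole 3′ end. It was at 646, 510, 548 and 579 CPM at 2 weeks and at 3146, 2749, 2843 and 3065 CPM at 12 weeks, with 613, 446, 340 and 527 CPM in the healthy library. The folds of 4.87, 5.39, 5.18 and 5.29 were again nearly equal in the classes. mt-Atp8 was at 193, 199, 125 and 247 CPM and then at 398, 520, 465 and 912 CPM. The other measured mitochondrially encoded genes were within 2-fold in every class, and their medians with it were -0.17, -0.51, -0.02 and 0.03 on the log2 scale.

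**Figure D2:**
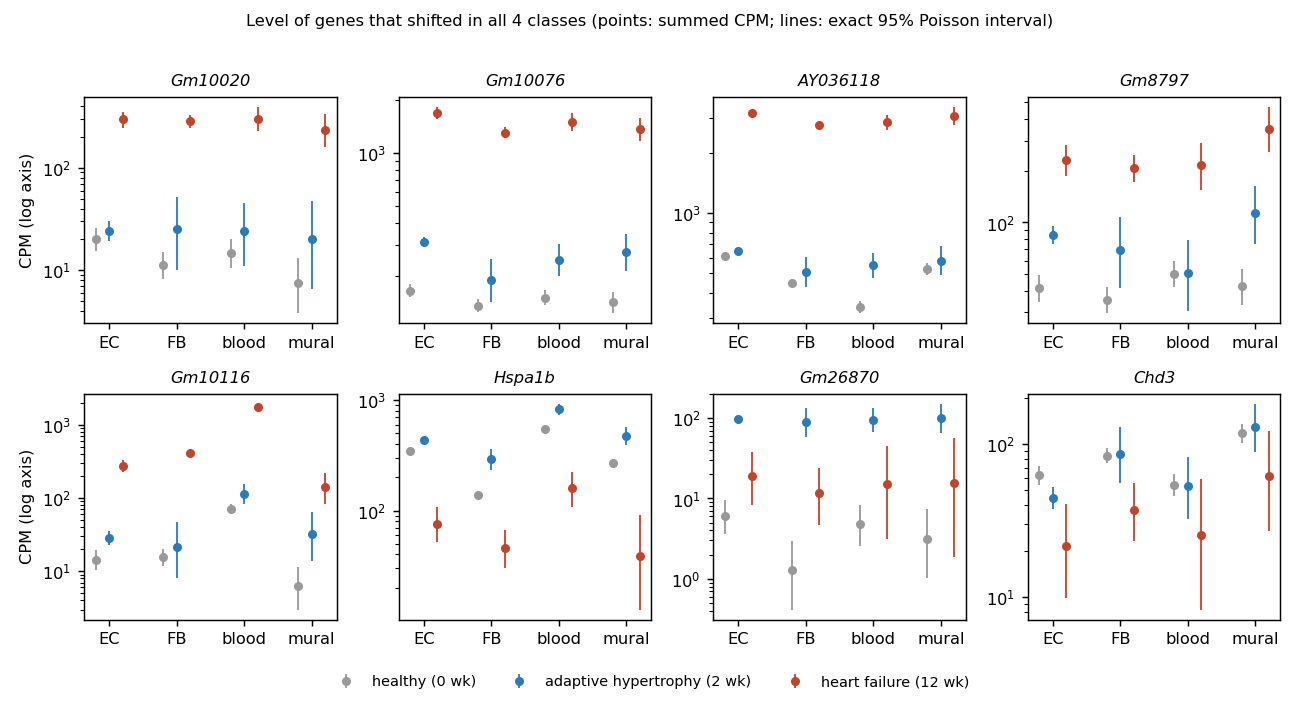
Level of 8 genes that were past 2-fold in the same direction in all 4 classes, in CPM on a log axis, by class. Grey points are the healthy, blue the 2-week and red the 12-week library, and lines exact 95% Poisson intervals. For Gm10020, Gm10076, AY036118, Gm10116 and Gm8797 the red points lie above the others in every class, while for Hspa1b and Gm26870 they lie below the blue ones.

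Only 3 genes were at least 2-fold lower in all 4 classes at 12 weeks, and the leading of these was Hspa1b (chr17:34956436-34959238, minus strand), an inducible HSP70 chaperone gene that heat shock factor turns on when proteins misfold. Hspa1b was at 432 CPM in ECs, 293 in FBs, 825 in blood cells and 478 in mural cells at 2 weeks. At 12 weeks it was at 76.3, 45.3, 159 and 39.0 CPM, and in the healthy library at 343, 138, 547 and 270 CPM. The 12-week library thus lay below both others, by 5.67-fold (4.00 to 8.32), 6.46-fold (4.14 to 10.4), 5.21-fold (3.59 to 7.79) and 12.3-fold (5.11 to 38.5) relative to 2 weeks. Its neighbour Hspa1a, which encodes the same kind of chaperone, was at 2045, 387, 1470 and 1786 CPM and then at 1025, 327, 849 and 951 CPM, lower by 2.00-fold, 1.18-fold, 1.73-fold and 1.88-fold.

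The 250 bases before the start of Hspa1b and Hspa1a are printed because the genes differed unlike each other although their promoters are nearly the same. They come from RefSeq (GRCm38.p6), chr17:34959239-34959488 and chr17:34972157-34972406, both on the minus strand, and 247 of 250 bases are identical position by position. Capitals mark a heat shock element, searched as TTCNNGAA or GAANNTTC, which covers both strands, whose first base lies 104 bases before the start in each.
Hspa1b: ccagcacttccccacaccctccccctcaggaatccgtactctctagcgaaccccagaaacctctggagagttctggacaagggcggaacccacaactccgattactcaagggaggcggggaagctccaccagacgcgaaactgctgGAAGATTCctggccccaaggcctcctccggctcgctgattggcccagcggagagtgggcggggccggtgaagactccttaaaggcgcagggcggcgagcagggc
Hspa1a: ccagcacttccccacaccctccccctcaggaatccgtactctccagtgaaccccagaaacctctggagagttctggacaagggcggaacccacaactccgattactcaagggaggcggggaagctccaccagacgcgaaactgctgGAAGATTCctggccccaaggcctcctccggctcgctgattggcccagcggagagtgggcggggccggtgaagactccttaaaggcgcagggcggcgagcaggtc

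Such an element stands in the same 250 bases of 8 of 13 tabulated genes of the heat shock and chaperone list and of 12.8% of 32851 promoters. The list as a whole did not share the pattern of Hspa1b. Of its 17 measured members in ECs 1 was at least 2-fold lower (6.85% of all genes) and 2 higher (7.20%), the co-chaperone genes Ahsa1 and Stip1, and the median log2 ratio was -0.00. In blood cells 4 of 15 were lower, Hspa1b, Dnajb1, Dnajb4 and Bag3, against 8.30% of all genes, and 0 higher, at a median of -0.64. The counts were 2 lower and 1 higher of 17 in FBs (6.44% and 7.32% of all genes) and 2 lower and 2 higher of 16 in mural cells (10.6% and 5.03%), near the shares over all genes. Immediate early genes, which dissociation of the tissue also turns on, were within 2-fold in 24 of 25 cases in ECs, 21 of 25 in FBs, 19 of 22 in blood cells and 22 of 24 in mural cells.

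Gm26870 (chr9:3000282-3038313, minus strand, annotated as a lincRNA) was lower at 12 weeks, but here the 2-week library was the one that stood apart. It was at 96.9, 90.4, 95.8 and 101 CPM at 2 weeks, at 19.1, 11.7, 15.3 and 15.6 CPM at 12 weeks and at 6.06, 1.28, 4.84 and 3.13 CPM in the healthy library. Its 12-week levels rested on 8, 7, 3 and 2 UMIs. Chd3, a chromatin remodeller gene of the NuRD complex, was 2.08-fold lower in ECs (1.07 to 4.65), 2.35-fold in FBs (1.26 to 4.40), 2.08-fold in blood cells (0.758 to 7.10) and 2.08-fold in mural cells (0.938 to 5.22). The last intervals reach beyond no difference, so a shared difference of Chd3 was not detectable at this depth.

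Genes of the circadian clock differed in more than 1 class. The clock is a feedback loop in which BMAL1 (the product of Arntl) and CLOCK bind E-boxes and turn on Per, Cry and Nr1d genes, whose products then repress the loop. Output factors such as DBP, TEF and HLF bind D-boxes, and transcripts of the loop rise and fall through the day in most tissues, the heart among them. The time of day at which hearts were taken is not given in the sources used here. Of 12 measured repressor and output genes in ECs, 9 were at least 2-fold lower at 12 weeks and 1 was higher. Over all genes 6.85% were lower and 7.20% higher. The median log2 ratio of the 12 was -1.49 against 0.09 over all genes. In FBs 4 of 8 were lower (6.44% of all genes) and 0 higher (7.32%), at a median of -1.42. In blood cells 1 of 2 was lower (8.30% of all genes, median -0.75) and in mural cells 4 of 4 (10.6%, median -2.32). With cells thinned to 1000 UMIs the count was 6 in ECs, 1 in FBs and 0 in mural cells. It was 7, 1 and 1 among genes with at least 50 UMIs, and 8, 4 and 0 in cells with no UMI of another class's rule genes, so that the counts in FBs and mural cells rest on few UMIs. Their levels summed to 291 CPM in the healthy, 802 CPM in the 2-week and 241 CPM in the 12-week library in ECs, so that the 2-week library stood apart.

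Dbp, the gene of a D-box-binding output factor, differed most in ECs. It was at 201 CPM in ECs at 2 weeks (185 to 217, 634 UMIs in 426 cells) and at 2.38 CPM at 12 weeks (0.0603 to 13.3, 1 UMI), 84.2-fold lower (15.1 to 3332). In FBs it was at 101 and 11.7 CPM, 8.62-fold lower (3.68 to 23.4), and in mural cells at 223 and 7.80 CPM. In blood cells 9 UMIs at 2 weeks and 0 at 12 weeks put it at least 1.56-fold lower. The healthy library had 4.14, 18.7, 5.96 and 5.63 CPM in the 4 classes, close to the 12-week levels.

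Nr1d1, which encodes the repressor REV-ERBα, was at 94.1 CPM in ECs at 2 weeks and 7.15 CPM at 12 weeks, 13.2-fold lower (4.46 to 64.1), and at 170 and 6.71 CPM in FBs, 25.3-fold lower (9.26 to 96.7). Its relative Nr1d2 was 2.09-fold lower in ECs (1.17 to 4.12) and 3.69-fold in FBs (1.83 to 7.72). Per1 was at 47.2 and 7.15 CPM in ECs and at 68.7 and 11.7 CPM in FBs, but at 63.9 and 56.2 CPM in blood cells, at a log2 ratio of -0.18 there. Per3 had 102 UMIs in ECs at 2 weeks and 0 at 12 weeks, at least 4.52-fold lower, while in FBs it was at 36.2 and 26.9 CPM, and the interval of that difference spanned equality. Tef was 3.83-fold lower in ECs (1.72 to 10.6). Ciart, a repressor gene with a near-identical copy, Gm9176, had 36 and 2 UMIs in ECs, 2.39-fold lower (0.616 to 20.5). Bhlhe40, a repressor gene that hypoxia also turns on, was 2.18-fold lower in ECs, 2.00 in FBs, 2.52 in blood cells and 5.71 in mural cells. Per2 and Cry2 lay at log2 ratios of -0.02 and 0.25 in ECs.

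Cry1 and Arntl, which peak at another time of the day than Dbp and Nr1d1, went the other way in ECs. Cry1 was at 8.87 CPM at 2 weeks and 33.4 CPM at 12 weeks, 3.76-fold higher (1.83 to 7.39), and Arntl at 7.92 and 23.8 CPM, 3.01-fold higher (1.29 to 6.49). Nfil3, whose product competes with DBP for D-boxes, was 2.38-fold higher (0.777 to 6.19), and that interval spans equality. In FBs Arntl was at 43.4 and 52.0 CPM and Clock at 57.9 and 42.0 CPM, both with intervals of the ratio that span equality. The healthy library had 22.6 CPM of Cry1 and 23.9 CPM of Arntl in ECs, again nearer to the 12-week library.

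**Figure D3:**
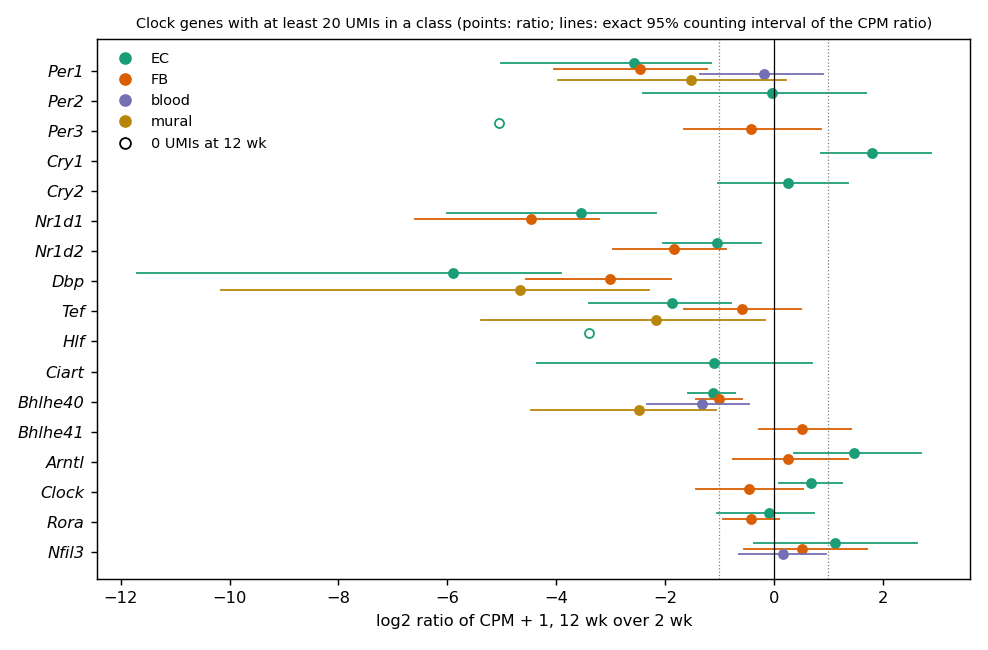
Log2 ratio of CPM with 1 CPM added, 12 over 2 weeks, for clock genes with at least 20 UMIs in a class (colours), with the exact 95% counting interval of the CPM ratio as a line; dotted lines mark 2-fold and open circles 0 UMIs at 12 weeks. Dbp in ECs lies at -5.90 and Nr1d1 in FBs at -4.47, while Cry1 and Arntl in ECs lie at 1.80 and 1.48.

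Promoters of the clock genes are shown because the loop acts through 2 short motifs. The 250 bases before the start were read from RefSeq (GRCm38.p6), and capitals mark the E-box CACGTG or the D-box TTATGTAA. They are Ciart (chr3:95882229-95882478, minus strand, 3 E-boxes at 116, 58 and 44 bases before the start), Per1 (chr11:69098699-69098948, plus strand, 1 E-box at 166), Cry1 (chr10:85185055-85185304, minus strand, 1 E-box at 60) and Per3 (chr4:151044666-151044915, minus strand, 2 D-boxes at 205 and 158).
Ciart: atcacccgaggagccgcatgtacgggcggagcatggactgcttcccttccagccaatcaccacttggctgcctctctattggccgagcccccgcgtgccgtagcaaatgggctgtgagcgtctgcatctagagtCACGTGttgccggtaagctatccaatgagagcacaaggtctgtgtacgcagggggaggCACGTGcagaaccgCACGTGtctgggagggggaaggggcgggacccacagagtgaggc
Per1: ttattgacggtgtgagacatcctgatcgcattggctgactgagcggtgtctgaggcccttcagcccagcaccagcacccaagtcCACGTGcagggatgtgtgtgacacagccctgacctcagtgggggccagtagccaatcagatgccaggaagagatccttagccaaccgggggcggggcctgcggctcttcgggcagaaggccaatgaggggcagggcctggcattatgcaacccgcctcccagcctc
Cry1: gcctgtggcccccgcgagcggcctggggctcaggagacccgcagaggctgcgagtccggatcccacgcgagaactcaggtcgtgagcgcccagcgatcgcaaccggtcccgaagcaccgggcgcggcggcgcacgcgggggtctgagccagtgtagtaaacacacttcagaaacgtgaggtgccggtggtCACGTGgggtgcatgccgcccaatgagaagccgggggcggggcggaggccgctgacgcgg
Per3: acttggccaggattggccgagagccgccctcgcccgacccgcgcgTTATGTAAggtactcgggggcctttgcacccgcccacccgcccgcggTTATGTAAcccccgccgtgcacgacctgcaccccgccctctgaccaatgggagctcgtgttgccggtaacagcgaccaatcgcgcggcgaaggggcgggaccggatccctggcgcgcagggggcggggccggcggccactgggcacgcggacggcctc

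An E-box stood in 5 of 11 tabulated repressor and output promoters, against 6.02% of all 32851, and in 0 of 5 activator promoters. The D-box, searched as TTATGTAA or TTACGTAA on both strands, stood in 1 of 11, Per3, against 0.931% of all. The promoters with an E-box were those of Per1, Cry1, Tef, Ciart and Bhlhe41. Dbp, which differed most in ECs, Nr1d1, which differed most in FBs, and Nr1d2 held 0 matches of either motif in this window. Cry1 and Per1 both carry an E-box and went opposite ways in ECs. A match is a description of the letters in this window, which covers only the promoter next to the start.

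In FBs, genes of the activated state were lower at 12 weeks than at 2 weeks. Of 26 measured genes of the activated fibroblast list, 15 were at least 2-fold lower and 0 higher, with a median log2 ratio of -1.07 against -0.01 over all genes, of which 6.44% were lower. The list summed to 17837 CPM in the healthy, 30934 CPM in the 2-week and 13246 CPM in the 12-week library, a ratio of 0.428 (0.415 to 0.442) of 12 over 2 weeks. The 2-week FBs therefore stood above both other libraries. Cells with over 10% mitochondrial UMIs, a sign of damage, were 33 of the 97 FBs at 2 weeks and 20 of the 162 at 12 weeks, and without them 13 genes of the list were lower, at a median of -0.98. The genes encode collagens, collagen cross-linking enzymes and matricellular proteins that FBs secrete when they are activated.

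Postn (chr3:54361109-54391037), which encodes the matricellular protein periostin and marks activated FBs, was at 777 CPM in the healthy library, 4144 CPM at 2 weeks (3907 to 4391) and 1057 CPM at 12 weeks (976 to 1143). It was 3.92-fold lower at 12 weeks than at 2 weeks (3.55 to 4.33). Cthrc1, a marker of matrix-producing FBs after injury, was at 123 and 6.71 CPM, 18.3-fold lower (6.53 to 71.0). Fn1, the fibronectin gene, was at 510 and 67.1 CPM, 7.59-fold lower (5.31 to 11.1). Lox, whose enzyme cross-links collagen, was at 213 and 36.9 CPM (18.7 CPM in the healthy library), and its relatives Loxl1 and Loxl2 were 2.07-fold (1.75 to 2.45) and 3.61-fold lower (2.61 to 5.03). The 3′ end of Loxl2 matches 73 other genes, so its counts are uncertain.

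Fibrillar collagens went the same way. Col3a1 was at 6035 CPM at 2 weeks and 1648 CPM at 12 weeks, 3.66-fold lower (3.38 to 3.97), and Col5a1 and Col5a2, which set the diameter of collagen fibrils, were 3.95-fold (3.04 to 5.16) and 3.17-fold lower (2.52 to 4.00). Col1a1 and Col1a2 helped to define the class and are given as a description, at 3424 and 1408 CPM and at 4339 and 1465 CPM. Sparc, a collagen-binding matricellular gene, was at 7872 and 2632 CPM in FBs, and in ECs at 3441 and 1969 CPM. Thbs1 was 2.01-fold (1.63 to 2.49) and Thbs4 2.27-fold lower (1.69 to 3.05).

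Not all of the list moved. Tgfb1, the gene of the main profibrotic cytokine, was at 137 and 141 CPM, Timp1 at 300 and 250 CPM, and the myofibroblast gene Acta2 at 86.8 and 67.1 CPM from 24 and 40 UMIs. Meox1, a transcription factor gene of activated FBs, had the highest ratio of the list at 362 and 576 CPM, 1.59-fold higher (1.27 to 2.01). Comp and Cilp, cartilage matrix genes that stressed cardiac FBs also express, were at 947 and 545 CPM and at 1103 and 646 CPM, and both stood above their healthy levels of 224 and 305 CPM at 12 weeks. At 12 weeks Postn, Lox and Ltbp2 were also above the healthy level, whereas Fn1, Col3a1, Col5a1 and Sparc were below it.

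**Figure D4:**
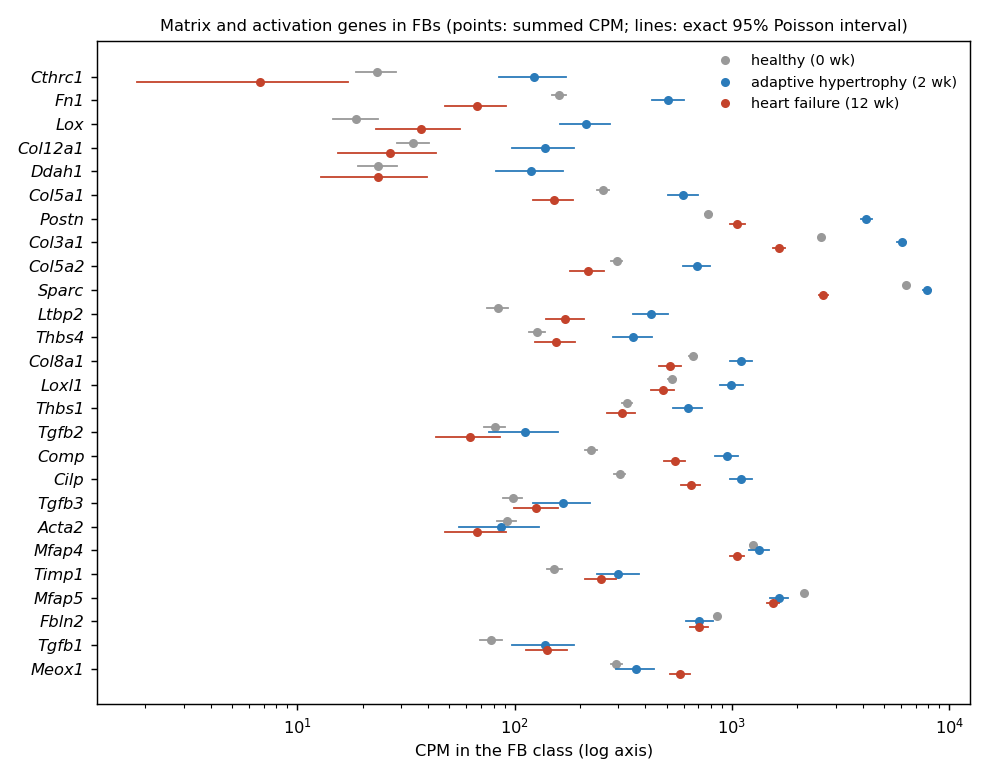
Level of the measured genes of the activated fibroblast list in FBs, in CPM on a log axis, with grey points for the healthy, blue for the 2-week and red for the 12-week library and lines for exact 95% Poisson intervals. The 2-week point of Postn lies at 4144 CPM and that of the 12-week library at 1057 CPM, and Meox1 at the bottom goes the other way.

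Other FB genes were higher at 12 weeks. Gsn, which encodes the actin-severing protein gelsolin and is a general marker of cardiac FBs, was at 11188 and 32231 CPM (29167 CPM in the healthy library), 2.88-fold higher (2.77 to 2.99). Dcn, the decorin gene, was at 8595 and 15571 CPM, and Lum stayed at 2278 and 2241 CPM. Of 14 genes of the resting fibroblast list, 3 were at least 2-fold higher, namely Hsd11b1, Inmt and Dpep1, and 2 lower, Gdf10 and Apod, against 7.32% and 6.44% of all genes, with a median of 0.60. Inmt, a methyltransferase gene, had 1 UMI at 2 weeks and 87 UMIs in 27 cells at 12 weeks, a ratio of 40.4 (7.06 to 1613). Hsd11b1, which activates glucocorticoids, was at 14.5 and 80.6 CPM, and the dipeptidase gene Dpep1 at 75.9 and 233 CPM.

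Of the 25 genes that were higher in FBs alone, those with at least 50 UMIs, at least 100 CPM in the higher library and the largest ratios were Notch2, a receptor of the Notch pathway (25.3 and 129 CPM, 5.11-fold, 2.36 to 13.1), Dusp3, a phosphatase gene (47.0 and 119 CPM, 2.54-fold, 1.39 to 4.99) and Sntb2, a syntrophin of the dystrophin complex (39.8 and 101 CPM, 2.53-fold, 1.32 to 5.34). Of the 20 that were lower in FBs alone, those named by the same limits were Loxl2, Cd200 and Col5a2. Cd200, an inhibitory ligand for myeloid cells, was at 260 and 72.2 CPM in FBs, 3.61-fold lower (2.44 to 5.39), and at 1009 and 911 CPM in ECs. These differences were therefore seen in FBs and not in the other classes where the gene was measured, by the limits that chose them.

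Of 140 genes measured in FBs alone, with at least 50 UMIs there, 11.4% were higher and 22.1% lower. Several of those with the largest ratios rested on few cells. Ccl19, a chemokine gene that draws T cells and dendritic cells, had 4 UMIs at 2 weeks and 134 at 12 weeks, 50 of them in 1 cell. Its near-identical neighbour Gm2564 (99.0% identity) had 0 and 66 UMIs, at least 10.2-fold higher, with 25 in 1 cell, and the division of reads between these genes is uncertain. Apod, a lipocalin gene, had 258 UMIs at 2 weeks, 232 in 1 cell, and 45 at 12 weeks. The myelin gene Mbp had 65 UMIs at 2 weeks, of which 50 were in 1 cell.

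Among blood cells, neutrophil genes and genes of resident macrophages were higher at 12 weeks. All 4 measured genes of the neutrophil list were at least 2-fold higher, against 6.56% of all genes, and the list summed to 2545 CPM at 2 weeks and 24049 CPM at 12 weeks, with 1977 CPM in the healthy library. S100a8, a subunit of the calprotectin complex that neutrophils store, was at 1342 and 14645 CPM, 10.9-fold higher. Its UMIs lay in 7 cells at 2 weeks and 21 at 12 weeks, and 1 cell held 1140 of the 2864 at 12 weeks. S100a9 was at 1009 and 8074 CPM, Retnlg at 152 and 1191 CPM in 2 and 11 cells, and Csf3r, the receptor for the neutrophil growth factor G-CSF, at 37.3 and 123 CPM. Camp and Ngp, genes of immature neutrophil granules, had 130 and 63 UMIs at 12 weeks, each in a single cell, and 0 at 2 weeks. Cells with UMIs of S100a8 or Retnlg were thus more among the 72 blood cells at 12 weeks than among the 160 at 2 weeks. How far more neutrophils or more such RNA per cell made up the higher sum cannot be told apart here.

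Of 8 measured genes of the resident macrophage list, 6 were at least 2-fold higher and 0 lower, against 6.56% and 8.30% of all genes. Their median was 1.79 against -0.04 over all genes. The list summed to 3515 CPM in the healthy, 719 CPM in the 2-week and 1912 CPM in the 12-week library. Folr2, the folate receptor of tissue macrophages, was at 77.2 and 312 CPM, 4.04-fold higher (2.56 to 6.52), and Cbr2 at 53.2 and 235 CPM, 4.42-fold higher (2.56 to 7.88). Lyve1, the hyaluronan receptor gene, was at 10.6 and 102 CPM from 4 and 20 UMIs, Gas6, the ligand of the clearance receptor MERTK, at 45.3 and 189 CPM, and Cd163, the haemoglobin scavenger receptor gene, at 31.9 and 97.2 CPM. Genes of monocytes, which the circulation supplies, stayed within 2-fold in 7 of 7 cases, for example Ccr2 at 216 and 240 CPM and Ly6c2 at 173 and 184 CPM. The summed resident macrophage genes at 12 weeks thus lay between the 2-week and healthy levels.

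Of the 12 genes higher in blood cells alone, by the same limits, Pglyrp1, a neutrophil peptidoglycan-binding gene, was at 61.2 and 348 CPM, Rrad, a small GTPase gene, at 112 and 394 CPM (33 of 77 UMIs in 1 cell), and Ccl2, the main monocyte chemoattractant gene, at 572 and 1989 CPM, 3.48-fold higher (2.93 to 4.12). The healthy level of Ccl2 was 2108 CPM. Of the 22 lower, Tmem123 was 5.73-fold lower (2.31 to 18.3), Grb2, an adaptor gene of receptor signalling with a near-identical copy, Gm12791, 4.83-fold (2.22 to 12.5) and B4galt5, a glycosyltransferase gene, 3.28-fold (1.82 to 6.43). Of 158 genes measured in blood cells alone, with at least 50 UMIs there, 11.4% were higher and 11.4% lower. The lower ones named by the limit of 100 CPM were dendritic cell genes. Cd209a was at 208 and 15.3 CPM from 78 and 3 UMIs, Ccl22 at 149 and 25.6 CPM, and Ccl17 had 97 UMIs, 76 of them in 1 cell, and then 0, at least 16.8-fold lower.

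In ECs, capillary, arterial and venous lists stayed mostly in place. No gene of 9 capillary, 10 arterial and 5 measured venous genes was past 2-fold, with medians of -0.20, 0.38 and -0.38. All 3 measured endocardial genes were higher, Npr3, Cytl1 and Plvap, against 7.20% of all genes, and the list summed to 115 CPM at 2 weeks and 791 CPM at 12 weeks (459 CPM in the healthy library). Cytl1 was at 70.0 and 655 CPM with UMIs in 34 and 28 cells. The list was higher in FBs as well, at 65.1 and 540 CPM, with Cytl1 the measured member there, so that the difference was not one of ECs alone. The cell cycle list had 5 of 10 measured genes at least 2-fold lower with 1 CPM added, against 6.85% of all genes, and 0 higher. Among them Top2a, a DNA topoisomerase of dividing cells, had 37 UMIs at 2 weeks and 0 at 12 weeks. Its counts put it at least 1.64-fold lower, so they do not by themselves reach 2-fold. The list summed to 502 and 367 CPM, a ratio of 0.73 (0.62 to 0.86), and 7 of its 12 members had 0 UMIs in the smaller 12-week EC pool, all 5 lower ones among them. Scarb1, the receptor for high-density lipoprotein which the study followed in ECs, was at 157 CPM in the healthy, 179 CPM in the 2-week and 117 CPM in the 12-week library, 1.53-fold lower at 12 than at 2 weeks (1.15 to 2.10). The fatty acid transporter gene Cd36 was at 2408 and 2093 CPM.

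Of the 68 genes higher in ECs alone, those named by the limit of 100 CPM were Lars2, the mitochondrial leucyl-tRNA synthetase gene (22.2 and 188 CPM, 8.49-fold, 6.08 to 11.9), Itpr1, a calcium channel of the endoplasmic reticulum (32.6 and 133 CPM, 4.09-fold, 2.90 to 5.72) and Vcam1, the leukocyte adhesion molecule gene (124 and 296 CPM, 2.37-fold, 1.92 to 2.91). Lars2 lay in 51 cells at 12 weeks with at most 6 UMIs in a cell, so it was spread over the class. It was not measured in mural cells, where 1 and 7 UMIs went the same way (4.05 and 54.6 CPM, a ratio of 13.5, 1.73 to 607), and in FBs it was at 25.3 and 28.5 CPM. Of the 124 UMIs of Vcam1 at 12 weeks 36 were in 1 cell, and its log2 ratio was -0.029 in cells without a UMI of another class's marker genes. Of the 59 lower genes those so named were Pxdn, whose enzyme cross-links basement membrane collagen (163 and 54.8 CPM, 2.98-fold, 1.96 to 4.74), Ier5l (175 and 59.6 CPM, 2.93-fold, 1.97 to 4.57) and Nus1, a subunit gene of dolichol synthesis (114 and 50.1 CPM, 2.28-fold, 1.47 to 3.72).

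Of 1683 genes measured in ECs alone, with at least 50 UMIs there, 5.05% were higher and 8.91% lower. Gkn3, a marker of arterial ECs, was at 20.0 and 269 CPM, 13.5-fold higher (9.83 to 18.7), with UMIs in 15 and 19 cells. Trim37, a ubiquitin ligase gene, was at 23.8 and 131 CPM, 5.52-fold higher (3.83 to 7.92), and lay in 49 cells at 12 weeks. Ccl21a, a lymphatic chemokine gene with near-identical copies, had 62 UMIs at 12 weeks, 55 of them in 1 cell. The lower genes named by the limit of 100 CPM, under which genes with larger ratios fell, were the cardiomyocyte genes Myl2, a myosin light chain (172 and 54.8 CPM, 3.14-fold, 2.07 to 5.00), and Mb, myoglobin (107 and 40.5 CPM, 2.63-fold, 1.62 to 4.58), and Rnf144a, a ubiquitin ligase gene (102 and 40.5 CPM, 2.51-fold, 1.54 to 4.36). Of 16 measured cardiomyocyte genes 10 were lower in ECs, against 6.85% of all genes, and 0 higher, and they summed to 1605 CPM in the healthy, 1156 CPM in the 2-week and 586 CPM in the 12-week library.

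Genes that mark another class also differed within each class, and the summed FB and blood genes were higher at 12 weeks in every other class. In ECs, 6 of 7 measured FB genes were at least 2-fold higher at 12 weeks (Dcn, Lum, Gsn, Dpt, Serping1 and Mmp2), against 7.20% of all genes. The 8 FB genes summed to 955 CPM in the healthy, 94.1 CPM in the 2-week and 1065 CPM in the 12-week library. Gsn alone was at 25.0 and 596 CPM in ECs, spread over 136 of the 244 cells at 12 weeks with at most 7 UMIs in a cell. All 4 measured blood genes were at least 2-fold higher in ECs, against 7.20% of all genes, and the 8 blood genes summed to 333, 83.0 and 417 CPM. Both measured blood genes were so in FBs, against 7.32% of all genes, and the sums were 287, 50.6 and 438 CPM. In each class these sums lay low in the 2-week library, and nearer to each other in the healthy and 12-week libraries. FBs were 4.35% of the cells at 2 weeks and 20.5% at 12 weeks. Blood cells were 7.17% and 9.09%, with overlapping intervals. Whether these shares had a part in the sums was not tested. Red-cell genes summed to 333 and 4781 CPM in ECs, and 571 of the 581 UMIs of Hba-a1 at 12 weeks were in 1 cell. The part of free RNA and of cell doublets in these values, and in the level of Vcam1 in ECs, was not tested.

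**Figure D5:**
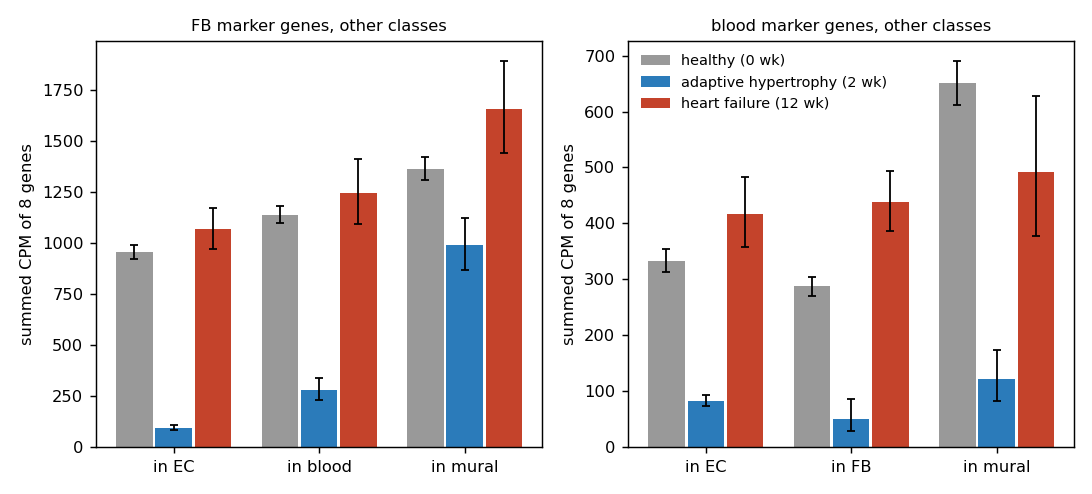
Summed CPM of 8 FB marker genes (left) and 8 blood marker genes (right) in the other classes, with grey bars for the healthy, blue for the 2-week and red for the 12-week library and lines for exact 95% Poisson intervals. FB genes in ECs stand at 955, 94.1 and 1065 CPM, with the 2-week library lowest, and the same order holds in blood and mural cells.

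In mural cells, genes shared with arterial vessels were lower at 12 weeks. Of 9 measured genes of the arterial list 5 were at least 2-fold lower and 0 higher, against 10.6% lower over all genes, and the median was -1.11. Sema3g, a secreted semaphorin gene, was at 332 and 46.8 CPM, 7.10-fold lower (3.13 to 19.9), Fbln5, an elastic fibre gene, at 328 and 140 CPM, Stmn2 at 421 and 195 CPM, and Gja5, a connexin gene, at 72.9 and 15.6 CPM from 18 and 2 UMIs. Dll4, a Notch ligand gene, was 2.39-fold lower (0.888 to 8.05), an interval that spans equality. Podxl, a sialomucin gene of the luminal surface of ECs, was at 365 and 78.0 CPM, 4.67-fold lower (2.43 to 10.1), and Crispld2 at 409 and 101 CPM, 4.04-fold lower (2.26 to 7.84). EC marker genes in mural cells summed to 6494 and 4399 CPM, with Flt1 at 393 and 140 CPM, and whether EC RNA had a part in the lower arterial genes was not tested.

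Contractile genes of smooth muscle were within 2-fold for 8 of 9 measured members, with Acta2 at 7223 and 9546 CPM, and Cnn1, the calponin gene, at 146 and 304 CPM was 2.09-fold higher (1.29 to 3.38). Of 6 measured pericyte genes 2 were higher, against 5.03% of all genes, Steap4, a metalloreductase gene (89.1 and 328 CPM, 3.68-fold, 2.14 to 6.46), and Colec11 (12.2 and 156 CPM from 3 and 20 UMIs, 12.8-fold, 3.81 to 67.4). Rasgrp2, an activator of the GTPase RAP1, was 2.09-fold higher in mural cells alone (1.37 to 3.19). Tnnt2, a cardiac troponin gene that mural cells of the healthy library held at 88.2 CPM, was at 77.0 and 304 CPM, while the summed cardiomyocyte genes stood at 3010 and 3213 CPM. Of 25 genes measured in mural cells alone, with at least 50 UMIs there, 2 were higher and 3 lower. Of the latter Synpo2 was 2.11-fold lower (1.21 to 3.91) and Gm13861 2.38-fold lower (1.26 to 4.88), and Gm13861 turned with a mean over cells. Cells with over 10% mitochondrial UMIs were 37 of 75 mural cells at 2 weeks and 13 of 39 at 12 weeks. With 39 mural cells at 12 weeks, 3 UMIs made 23.4 CPM, which is the level that a count of 0 there allows.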

How the data were processed

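Droplet libraries of ventricular non-CMs at 2 and 12 weeks of TAC were compared, with a healthy control library beside them. The authors deposited 1 matrix of UMI counts per library, which the submitters' processing notes credit to Cell Ranger 2.0.0 and mm10, and raw counts of 27998 genes were read from it without further normalisation. The matrices held 4472377 UMIs in 2239 cells at 2 weeks and 1723863 in 802 cells at 12 weeks, and 8 and 10 cells under 200 genes were removed. The mm10 gene models behind the counts are not given in the sources used here. Counts were summed per class and library (Python 3.11.15, numpy 2.4.6, pandas 2.3.3), scaled to CPM, and set side by side as log2 ratios with a pseudocount of 1 CPM. A gene was measured in a class with at least 20 UMIs in both libraries together. Counts of genes that differed in 1 class, or were measured in 1 class only, took genes with at least 50 UMIs in that class. The 13 genes of the class rule were left out of all counts of genes. With 1 library a phase no test was run, and intervals at 95% (scipy 1.17.1) are of counting error. The steps were tested on simulated counts. Scrublet in scanpy 1.11.5 called 2 and 5 cells, too few to show that it worked, so doublets were kept and their removal was an alternative.

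Named genes were the 8 genes each way with the largest ratio in their weakest class, the 3 genes each way that differed in 1 class and the 3 each way measured in 1 class only with at least 50 UMIs and 100 CPM, and members of 41 gene lists. Mitochondrial, ribosomal and haemoglobin genes were taken as groups. The members and the lists were chosen with earlier results of these data known. Some genes that this rule names are not reported here. Gm10053, Rpl10-ps3 and the partner gene of each copy stand outside this rule and were added after their values were seen. Gene positions and transcript ends (the last 300 bases, blastn 2.17.0, at least 95% identity over 90 bases) came from GENCODE vM21, and promoters from RefSeq. Alternatives were 15 planned and 2 added after seeing the data.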

Additional observations from a re-analysis of the deposited data

Results flagged for a closer look

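Some genes measured in more than 1 class were past 2-fold in opposite directions in different classes, and 7 of them are given here. Members of the gene lists went opposite ways as well. Postn, Lox and Tagln were higher in ECs and lower in FBs, and Mt2 was higher in ECs and lower in mural cells. None of these differences between classes was tested, since each phase was 1 library. The 8 FB marker genes summed to 94.1 CPM at 2 weeks and 1065 CPM at 12 weeks in ECs. The part of free RNA in the EC levels of Postn, Lox, Tagln and, below, Col8a1 was not tested. Il6, the gene of a cytokine that FBs, mural cells and macrophages secrete, gave the widest contrast of the 7. Its log2 ratio was -8.33 in mural cells, where 79 UMIs at 2 weeks and 0 at 12 weeks put it at least 13.7-fold lower, -4.00 in ECs (129 and 7.15 CPM) and 1.51 in blood cells (53.2 and 153 CPM), where 24 of the 30 UMIs at 12 weeks were in 1 cell. Jag1, a Notch ligand gene, was at 1.10 in ECs (73.8 and 160 CPM) and -1.85 in mural cells (284 and 78.0 CPM).

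Irf8, a transcription factor gene of monocytes and dendritic cells, was at -3.33 in ECs, from 104 and 1 UMIs, and 1.17 in blood cells (90.5 and 205 CPM). Ccrl2, a chemokine-binding receptor gene, was at 1.62 in ECs (18.7 and 59.6 CPM) and -1.35 in blood cells (237 and 92.0 CPM). Col8a1, a short-chain collagen gene of the activated fibroblast list, was at 1.08 in ECs (37.7 and 81.0 CPM) and -1.08 in FBs (1103 and 520 CPM). Anxa1, the gene of an anti-inflammatory annexin, was at 1.11 in ECs (57.0 and 124 CPM), 1.09 in blood cells (216 and 460 CPM) and -1.01 in mural cells (174 and 85.8 CPM). Crtc3, a CREB coactivator gene, was at -1.04 in blood cells (106 and 51.1 CPM) and 1.05 in mural cells (97.2 and 203 CPM).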

How the results depend on the processing

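No paired analysis was possible because each phase was 1 library. No library could be left out for the same reason. The 11 genes higher in all classes were 7 with at least 50 UMIs, 84 with no filter, 4 with cells thinned to 1000 UMIs, 24 at 1.5-fold, 5 at 3-fold, 19 without mural cells, 5 in cells with no UMI of another class's rule genes and 1 without near-identical copies. The last 2 of these settings were chosen after seeing the data. The 3 lower genes were 1 with at least 50 UMIs, 27 with no filter, 1 when thinned, 13 at 1.5-fold, 5 with mitochondrial, ribosomal and haemoglobin genes outside the total, 5 without the top cell and 0 in cells with no UMI of another class. Genes differing in ECs alone (127) were 60 with a pseudocount of 10 CPM, 42 with no filter, 36 when thinned, 558 at 1.5-fold and 25 at 3-fold. They were 67 when a gene also needed 50 UMIs to count as measured in another class. In FBs alone (45) they were 18 with no filter, 16 when thinned, 200 at 1.5-fold and 5 at 3-fold. In blood cells alone (34) they were 52 with a mean over cells, 20 when thinned, 153 at 1.5-fold and 7 at 3-fold. In mural cells alone (27) they were 58 with a mean over cells, 11 when thinned, 126 at 1.5-fold, 9 at 3-fold and 8 in cells with no UMI of another class. Of clock repressor and output genes, 4 lower in FBs became 1 with at least 50 UMIs or thinned. The 4 in mural cells became 1 with at least 50 UMIs, 7 with no filter, 2 without cells over 10% mitochondrial UMIs, 2 with a class sum over 4 times the next, 2 without the top cell, 0 when thinned and 0 in cells with no UMI of another class. FB marker genes higher in ECs were 3 in place of 6 with at least 50 UMIs. At 2 weeks the EC share was 73.9% with at least 500 genes and 73.5% without cells of high mitochondrial share, which put FBs at 3.16% and mural cells at 1.88%. At 12 weeks the EC share was 36.0% and 36.6% under these settings, and the FB share 25.4% with at least 500 genes. Ratios that turned, on the log2 scale, were Gm13861 in mural cells (-1.24; 0.32 with a mean over cells and 0.15 when thinned), Nme2 in mural cells (1.26; -0.41 when thinned), Chd3 in mural cells (-1.04; 0.17 in cells with no UMI of another class) and Vcam1 in ECs (1.24; -0.029 in such cells). The cause was not tested. Of 1118 ratios of named genes under an alternative, 1058 moved by less than their counting interval, 55 by more and 5 turned. Without the top cell of each gene, genes higher made 29.1% of those past 2-fold in ECs in place of 51.2%, 63.7% in FBs in place of 53.2%, 26.4% in blood cells in place of 44.2% and 20.7% in mural cells in place of 32.3%. Taking out 1 cell weighs more where a class has fewer cells, which was at 12 weeks except in FBs. These shares therefore cannot show how far the results rest on single cells. Mural cells were 75 and 39 in number and blood cells 160 and 72, and the spread between hearts was not measured.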

Other observations

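The list of endoplasmic reticulum stress genes, which holds chaperones that fold secreted proteins and transcription factors of the unfolded protein response, had a median above 0 at 12 weeks in every class. Of the measured members, 13 of 16 were above a log2 ratio of 0 in ECs, 11 of 15 in FBs, 13 of 14 in blood cells and 8 of 12 in mural cells, with medians of 0.70, 0.48, 0.44 and 0.41. At least 2-fold higher were 1, 4, 3 and 3 of them, against 7.20%, 7.32%, 6.56% and 5.03% of all genes, so that the share in ECs was no larger than over all genes. The transcription factor gene Atf4 was lower, at 498 and 234 CPM in mural cells, 2.13-fold (1.42 to 3.29), and at 352 and 229 CPM in ECs, 1.54-fold (1.25 to 1.92). Their sum in ECs was 3595 CPM in the healthy, 2544 CPM in the 2-week and 3568 CPM in the 12-week library. The nuclear RNA Malat1 followed the same order, at 52398, 13990 and 31746 CPM in ECs and at 61524, 22972 and 36618 CPM in FBs.

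The list of angiogenic EC genes had 2 of 14 measured members higher and 3 lower in ECs, where 7.20% and 6.85% of all genes were. In FBs 2 of 6 were higher and 2 lower (7.32% and 6.44% of all genes). In mural cells 0 of 4 were higher and 2 lower (5.03% and 10.6% of all genes). Higher were Plvap and Kcne3 in ECs and Pgf and Adm in FBs. Its basement membrane collagen genes Col4a1 and Col4a2, picked after their values were seen, were lower in these 3 classes. Col4a1 was at 1382 CPM in ECs at 2 weeks and 512 CPM at 12 weeks, 2.70-fold lower, and 2.57-fold lower in mural cells, and Col4a2 was 3.01-fold and 3.98-fold lower. In FBs Col4a1 was at 654 and 211 CPM, 3.09-fold lower (2.45 to 3.92), and Col4a2 at 474 and 92.3 CPM, 5.13-fold lower (3.72 to 7.17). Genes of MHC class II, which present antigen to T cells, summed to 112 and 381 CPM in ECs and to 36.2 and 544 CPM in FBs. In ECs 4 of 4 measured were at least 2-fold higher, against 7.20% of all genes, and in FBs again 4 of 4, against 7.32%. Blood marker genes, which share Cd74 with this list, moved the same way there, from 83.0 to 417 CPM in ECs and from 50.6 to 438 CPM in FBs, and the part of free RNA was not tested. In blood cells, their main source, they summed to 42248 and 35182 CPM and 0 of 6 were past 2-fold.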
